A study of Arabidopsis thaliana with 16 samples.

Results

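Transcripts of 10 genes of the Calvin cycle, which converts CO2 into sugar in the chloroplast, were measured in rosette leaves of Arabidopsis flown on the satellite SJ-10 and kept on the ground. They are GAPA (AT3G26650), GAPA2 (AT1G12900), GAPB (AT1G42970), FBA1 (AT2G21330), FBA2 (AT4G38970), the plastid fructose bisphosphatase FBPase (AT3G54050, HCEF1 in the array annotation), SBPase (AT3G55800), PRK (AT1G32060), RCA (AT2G39730) and CP12-2 (AT3G62410). Members were taken by gene identifier, and each of the 10 was measured by 1 probe set of the ATH1 array that names no other gene. The array annotation covers 23616 genes in all. Under LD, 9 of the 10 had higher transcript signal in space over both genotypes, where 13.5% of all probe sets passed the test as higher. Their differences ran from 4.65-fold (RCA) to 40.5-fold (FBA1), and GAPA did not pass. Under SD, 4 of the 10 passed (GAPB, FBA2, FBPase and RCA), by 3.38-fold to 6.33-fold, against 3.43% of all probe sets. This count under SD depended on single arrays.

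In the Calvin cycle, Rubisco attaches CO2 to ribulose bisphosphate, the product is reduced to triose phosphate, and most of the triose phosphate is rearranged to regenerate the acceptor. GAPA, GAPA2 and GAPB encode subunits of the glyceraldehyde phosphate dehydrogenase of the reduction step, and FBA1, FBA2, FBPase, SBPase and PRK encode enzymes of regeneration. RCA encodes Rubisco activase, which frees Rubisco of bound sugar phosphates, and CP12-2 encodes a small protein that ties the dehydrogenase and PRK into an inactive complex in the dark. Several of these enzymes are switched on in the light through thioredoxins, and the transcripts of such genes are known to be abundant in green leaf tissue and to depend on light.

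The 16 arrays form 8 groups of 2. WT is Col-0. FG is the homozygous progeny of a cross and carries FT and GFP, each under the heat-inducible HSP17.4 promoter (pHSP::FT, pHSP::GFP). Plants were grown for 20 days before launch and then kept in flight for 12 days and 15 h, or on the ground. Daylength was LD (16 h light, 8 h dark) or SD (8 h light, 16 h dark). By the paper's methods all plants began under LD, and the split into LD and SD was made already before launch. All SD plants, flown or not and of either genotype, also received 1 h at 37 °C on day 2 and again on day 3, whereas LD plants were not heated, so SD against LD compares heated with unheated plants as well. RNA came from 4 leaves of 2 plants per treatment. The sources call the replicates biological and independent without saying how these plants were divided between the 2 arrays of a group. Space leaves were taken about 2 h after landing, and 1 growth unit flew. Flight, landing, the growth unit and handling therefore cannot be told apart. The paper gives neither the harvest time of the ground leaves nor the light phase of any leaves at harvest. A difference in light phase between groups therefore cannot be told apart from environment or daylength. The errors and p-values below measure only the spread between arrays, which may in part be technical. Groups are written as genotype, daylength and environment (WT-LD-sp, FG-SD-gr), where sp is space and gr is ground.

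Values are MAS 5.0 signals on the log2 scale, so a difference of 1 is 2-fold. All 160 values of the 10 genes were above the floor of 75 signal units, and 159 carried a present call, the exception being SBPase on FG-SD-gr array 2 (marginal). Of 22810 probe sets, 14286 were tested with limma, and a call required a 2-fold difference or more with a p under 0.05 after Benjamini-Hochberg adjustment. Differences are given ± SE, with 2 arrays per group. Other measures also moved with environment. The mean log2 signal of 10 heat shock genes was 7.52 to 10.95 on ground arrays and 6.28 to 6.80 on space arrays. The 3′ minus 5′ log2 signal of the GAPDH control probe sets was 1.12 to 1.75 on the ground and 0.12 to 1.14 in space, and present calls numbered 11759 to 13042 on the ground and 12560 to 13722 in space. Of 6 root markers 4, and of 6 flower markers 5, were present on no array, while all 4 phloem and epidermis markers were present on every array. Of 5 guard cell markers 1 was present on every array and 1 on none, and their summed signal was 685 to 1187 on the ground and 436 to 2834 in space. The median space difference of the phloem and epidermis markers was 0.03 in WT and 0.15 in FG under LD, with 1 marker called higher in WT, and -1.61 and -0.40 under SD, with 1 called lower over both genotypes, as was 1 guard cell marker. The part of all these measures in the results was not tested. In a leaf sample, fewer mesophyll cells and less RNA per cell cannot be told apart.

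**Figure D1:**
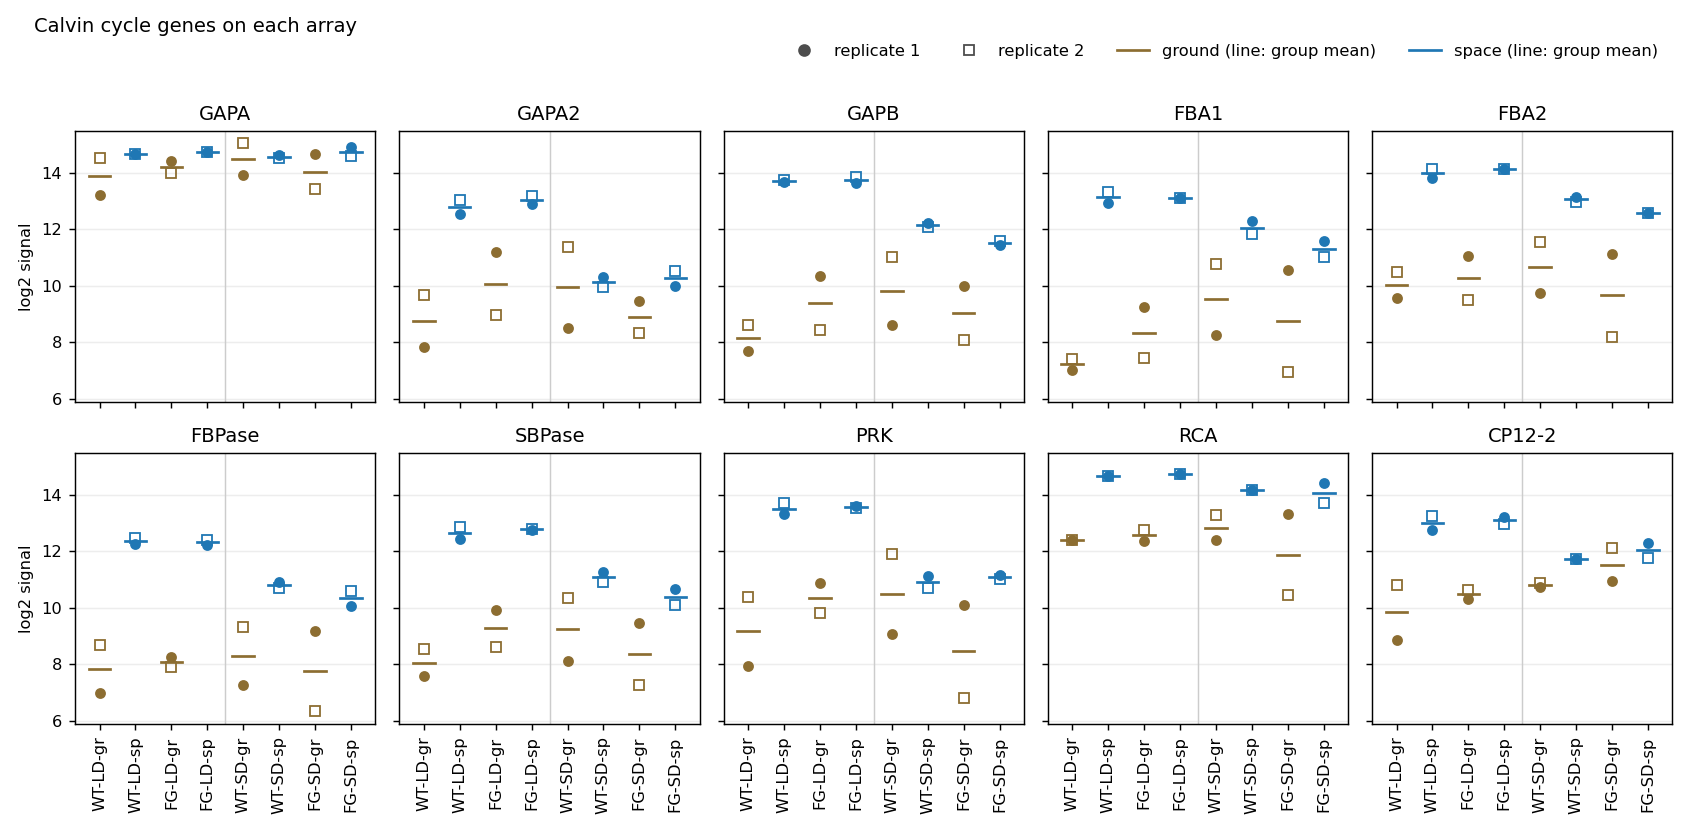
Log2 signal of each of the 10 genes (y axis) on each of the 16 arrays, by group (x axis), with filled circles for replicate 1, open squares for replicate 2 and a line at the group mean. Under LD the 4 space arrays lie above the 4 ground arrays in every panel, and the ground arrays of a group lie farther apart than the space arrays in most panels.

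GAPB, the B subunit of the plastid dehydrogenase, had the second largest difference of the 10 genes under LD. Its log2 signals were 7.67 and 8.59 on the WT-LD-gr arrays and 13.65 and 13.74 on the WT-LD-sp arrays. In FG they were 10.36 and 8.43 on the ground and 13.64 and 13.84 in space. The 4 space values lay close together and above every ground value. The difference was 5.56 ± 0.82 in WT (47.3-fold, limma adjusted p = 0.00194), the third highest among all 14286 probe sets, and 4.35 ± 0.82 in FG (20.3-fold, adjusted p = 0.00781). Under SD, GAPB measured 8.61 and 11.02 on the ground and 12.21 and 12.07 in space in WT, and 9.98 and 8.10 on the ground against 11.45 and 11.57 in space in FG. Space arrays were again all higher than ground arrays, but by less. GAPB differed by 2.33 ± 0.82 in WT (adjusted p = 0.157) and by 2.48 ± 0.82 in FG (adjusted p = 0.181), neither of which passed, and by 2.40 ± 0.58 over both genotypes (adjusted p = 0.0298), which did.

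The A subunit is encoded by GAPA and GAPA2. GAPA measured 13.22 and 14.52 in WT-LD-gr, 14.67 and 14.65 in WT-LD-sp, 14.43 and 13.98 in FG-LD-gr and 14.74 and 14.73 in FG-LD-sp. Under SD it measured 13.92 and 15.04 in WT-SD-gr, 14.62 and 14.50 in WT-SD-sp, 14.66 and 13.41 in FG-SD-gr and 14.89 and 14.58 in FG-SD-sp. All LD space values of GAPA were above all LD ground values, but the difference was only 0.79 ± 0.50 in WT (adjusted p = 0.292) and 0.54 ± 0.50 in FG (adjusted p = 0.507). Its 95% intervals were -0.31 to 1.89 and -0.57 to 1.64. The highest log2 signal of any probe set was 14.89 to 15.38 on space arrays and 15.34 to 15.72 on ground arrays, so GAPA was measured near the top of the scale.

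Under LD, GAPA2 measured 7.84 and 9.67 in WT-LD-gr against 12.53 and 13.05 in WT-LD-sp, and 11.19 and 8.97 in FG-LD-gr against 12.90 and 13.17 in FG-LD-sp. It rose by 4.03 ± 0.95 in WT (16.4-fold, adjusted p = 0.0155), and the 2.96 ± 0.95 in FG missed the threshold (adjusted p = 0.0564). Under SD the space values were no longer set apart from the ground, with 8.49 and 11.38 in WT-SD-gr, 10.32 and 9.97 in WT-SD-sp, 9.46 and 8.34 in FG-SD-gr and 9.997 and 10.53 in FG-SD-sp. WT-SD-gr array 2 alone exceeded all 4 SD space arrays. The SD differences of GAPA2 were 0.21 ± 0.95 in WT (adjusted p = 0.951) and 1.36 ± 0.95 in FG (adjusted p = 0.539). Probes of GAPA and GAPA2 could in part share targets because the genes are close paralogs, as FBA1 and FBA2 are, and cross-hybridisation was not tested.

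FBA1 and FBA2 encode plastid aldolases, which join triose phosphates in the regeneration phase. FBA1 measured 7.01 and 7.42 in WT-LD-gr and 12.94 and 13.33 in WT-LD-sp, and 9.23 and 7.45 in FG-LD-gr and 13.11 and 13.09 in FG-LD-sp. Its rise of 5.92 ± 1.05 in WT (60.6-fold, adjusted p = 0.00476) was the highest log2 difference of all probe sets tested, and in FG it rose by 4.76 ± 1.05 (27.0-fold, adjusted p = 0.0146). The ground values of FBA1 under SD spread widely, with 8.27 and 10.77 in WT and 10.55 and 6.94 in FG. The SD space values were 12.29 and 11.81 in WT and 11.60 and 11.02 in FG, all above the ground arrays. With that spread, neither the 2.53 ± 1.05 in WT (adjusted p = 0.216) nor the 2.57 ± 1.05 in FG (adjusted p = 0.270) passed, and over both genotypes the 2.55 ± 0.74 just missed the threshold (adjusted p = 0.0564).

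FBA2 measured 9.55 and 10.49 in WT-LD-gr, 13.83 and 14.13 in WT-LD-sp, 11.06 and 9.48 in FG-LD-gr and 14.11 and 14.14 in FG-LD-sp. The rise was 3.96 ± 0.86 in WT (15.5-fold, adjusted p = 0.0113) and 3.85 ± 0.86 in FG (14.5-fold, adjusted p = 0.0152), nearly equal in the 2 genotypes. Under SD, FBA2 measured 9.74 and 11.56 in WT-SD-gr, 13.15 and 12.97 in WT-SD-sp, 11.13 and 8.20 in FG-SD-gr and 12.57 and 12.58 in FG-SD-sp. Space and ground did not overlap. FBA2 had the largest SD difference of the 10 genes over both genotypes, 2.66 ± 0.61 (6.33-fold, adjusted p = 0.0242), while 2.41 ± 0.86 in WT (adjusted p = 0.160) and 2.91 ± 0.86 in FG (adjusted p = 0.139) did not pass.

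The 2 bisphosphatases, FBPase and SBPase, remove a phosphate from fructose and sedoheptulose bisphosphate and are classical targets of thioredoxin. FBPase measured 6.98 and 8.67 in WT-LD-gr and 12.25 and 12.47 in WT-LD-sp, and 8.24 and 7.91 in FG-LD-gr and 12.23 and 12.41 in FG-LD-sp. It rose by 4.54 ± 0.87 in WT (23.2-fold, adjusted p = 0.00634) and by 4.25 ± 0.87 in FG (19.0-fold, adjusted p = 0.0104). Under SD its space arrays, 10.90 and 10.70 in WT and 10.06 and 10.59 in FG, were all above its ground arrays, 7.26 and 9.30 in WT and 9.16 and 6.33 in FG. FBPase had its lowest value on FG-SD-gr array 2, close to the log2 floor of 6.23. The SD difference was 2.52 ± 0.87 in WT (adjusted p = 0.148), 2.58 ± 0.87 in FG (adjusted p = 0.183) and 2.55 ± 0.61 over both (adjusted p = 0.0289), and the pooled value passed.

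SBPase measured 7.57 and 8.53 in WT-LD-gr, 12.42 and 12.85 in WT-LD-sp, 9.91 and 8.62 in FG-LD-gr and 12.76 and 12.78 in FG-LD-sp. All LD space arrays were higher than all LD ground arrays, with rises of 4.58 ± 0.80 in WT (23.9-fold, adjusted p = 0.00431) and 3.51 ± 0.80 in FG (11.4-fold, adjusted p = 0.0162). Under SD it measured 8.12 and 10.35 in WT-SD-gr, 11.27 and 10.92 in WT-SD-sp, 9.45 and 7.25 in FG-SD-gr and 10.66 and 10.08 in FG-SD-sp. WT-SD-gr array 2 reached above 1 of the FG space arrays, so the pooled SD groups overlapped. SBPase differed by 1.94 ± 0.56 over both genotypes under SD and missed the threshold (adjusted p = 0.0551), as did 1.86 ± 0.80 in WT (adjusted p = 0.229) and 2.02 ± 0.80 in FG (adjusted p = 0.253).

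PRK makes ribulose bisphosphate, the acceptor of CO2. Under LD it measured 7.95 and 10.39 in WT-LD-gr, 13.31 and 13.71 in WT-LD-sp, 10.86 and 9.81 in FG-LD-gr and 13.59 and 13.53 in FG-LD-sp. The rise in WT was 4.34 ± 1.12 (20.3-fold, adjusted p = 0.0225), and the 3.23 ± 1.12 in FG did not pass (adjusted p = 0.0739). PRK had the widest ground range under SD, with 9.06 and 11.91 in WT-SD-gr and 10.10 and 6.82 in FG-SD-gr, and its SD space arrays, 11.14 and 10.71 in WT and 11.16 and 11.03 in FG, lay inside that range. Its SD differences were 0.44 ± 1.12 in WT (adjusted p = 0.886), 2.64 ± 1.12 in FG (adjusted p = 0.286) and 1.54 ± 0.79 over both (adjusted p = 0.237).

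RCA and CP12-2 act on the enzymes rather than as steps of the cycle. RCA measured 12.41 and 12.38 in WT-LD-gr, 14.67 and 14.65 in WT-LD-sp, 12.37 and 12.74 in FG-LD-gr and 14.73 and 14.71 in FG-LD-sp. Its LD difference was the smallest that passed in WT, 2.27 ± 0.68 (4.82-fold, adjusted p = 0.0412), and 2.17 ± 0.68 in FG just missed (adjusted p = 0.0540). On the LD space arrays RCA, at 14.65 to 14.73, lay as near the top of the scale as GAPA, at 14.65 to 14.74. The part of this in the differences of RCA was not tested. Under SD it measured 12.39 and 13.28 in WT-SD-gr, 14.16 and 14.18 in WT-SD-sp, 13.30 and 10.46 in FG-SD-gr and 14.40 and 13.71 in FG-SD-sp. Space and ground did not overlap. Over both genotypes RCA differed by 1.76 ± 0.48 under SD (adjusted p = 0.0468) and by 2.22 ± 0.48 under LD (adjusted p = 0.00563). The pooled SD call was lost with median centring, without the floor, with no filter and with a filter on present calls. It was also lost with a term for replicate number and on the arrays compared alone (limma adjusted p = 0.0513 to 0.196 over these alternatives). Leaving out most single arrays lost it too. The difference between the daylengths was -0.46 ± 0.68 (adjusted p = 0.747). Separately, the SD values were 1.34 ± 0.68 in WT (adjusted p = 0.313) and 2.18 ± 0.68 in FG (adjusted p = 0.161). The LD call in WT was kept on leaving out FG-SD-gr array 1 or array 2 and lost on leaving out any of the other 14 arrays.

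CP12-2 measured 8.87 and 10.80 in WT-LD-gr, 12.74 and 13.26 in WT-LD-sp, 10.30 and 10.64 in FG-LD-gr and 13.23 and 12.95 in FG-LD-sp. It rose by 3.16 ± 0.55 in WT (8.97-fold, adjusted p = 0.00416) and by 2.62 ± 0.55 in FG (6.13-fold, adjusted p = 0.0115). Under SD it measured 10.74 and 10.87 in WT-SD-gr, 11.74 and 11.71 in WT-SD-sp, 10.94 and 12.10 in FG-SD-gr and 12.30 and 11.75 in FG-SD-sp. FG-SD-gr array 2 lay above 3 of the 4 SD space arrays, and the differences were 0.92 ± 0.55 in WT (adjusted p = 0.384) and 0.51 ± 0.55 in FG (adjusted p = 0.727). CP12-2 was the only 1 of the 10 whose space difference passed the test of a change with daylength, -2.18 ± 0.55 over both genotypes (adjusted p = 0.0493), and it did not pass under median centring, without the floor, on log2(signal + 32), with no filter on low values or with a filter on present calls (adjusted p = 0.0515 to 0.125).

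Counted together, the 10 genes gave 9 calls in WT under LD, all higher, where 10.9% of all probe sets were called higher. In FG under LD the count was 6 against 9.46% of all probe sets, and over both genotypes 9 against 13.5%. The members' median differences were 4.19 in WT and 3.37 in FG, where the medians of all probe sets tested were 0.09 and 0.07. Every one of the 10 genes, GAPA included, had all 4 LD space arrays above all 4 LD ground arrays, which held for 21.4% of all probe sets. With any 1 of the 16 arrays left out, the same 9 genes remained called over both genotypes. Within 1 genotype the counts depended on single arrays. In WT the count fell most on leaving out WT-LD-gr array 1 or either WT-LD-sp array. In FG it fell most without FG-LD-gr array 2 or either FG-LD-sp array. Calls among all probe sets fell in the same fits. The members' median ran from 3.31 without WT-LD-gr array 1 to 5.01 without WT-LD-gr array 2 in WT. In FG it ran from 2.82 without FG-LD-gr array 2 to 4.11 without FG-LD-gr array 1. Fitted on the arrays compared alone, 3 genes were called higher in each genotype, against 0.896% (WT) and 2.36% (FG) of all probe sets.

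Under SD none of the 10 genes was called in WT or in FG by limma, where 1.25% and 0.609% of all probe sets were called higher. At an unadjusted p under 0.05 there were 5 in WT and 7 in FG, all higher, where 19.7% and 15.6% of all probe sets passed that mark in either direction. The medians were 1.60 and 2.33, against 0.11 and 0.05 over all probe sets, and all 10 differences were positive in both genotypes. Over both genotypes 4 of 10 were called higher, against 3.43% of all probe sets, and 5 (GAPB, FBA1, FBA2, FBPase and RCA) had space arrays all above ground arrays, against 10.3%. This count of 4 fell on leaving out most single arrays, and rose without WT-SD-gr array 2 or FG-SD-gr array 1. It fell most without WT-SD-gr array 1, either WT-SD-sp array, FG-LD-sp array 1 or either FG-SD-sp array. Calls among all probe sets fell in most of these fits as well. The members' pooled median ran from 1.22 without FG-SD-gr array 2 to 2.48 without FG-SD-gr array 1. When arrays were scaled to the spike-in controls, 7 genes were called in WT, 5 in FG and 9 over both genotypes under SD, where 22.9%, 14.5% and 25.7% of all probe sets were called higher. That scaling moved the median of all probe sets from 0.08 to 0.65, and the counts under it are relative to that shift.

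**Figure D2:**
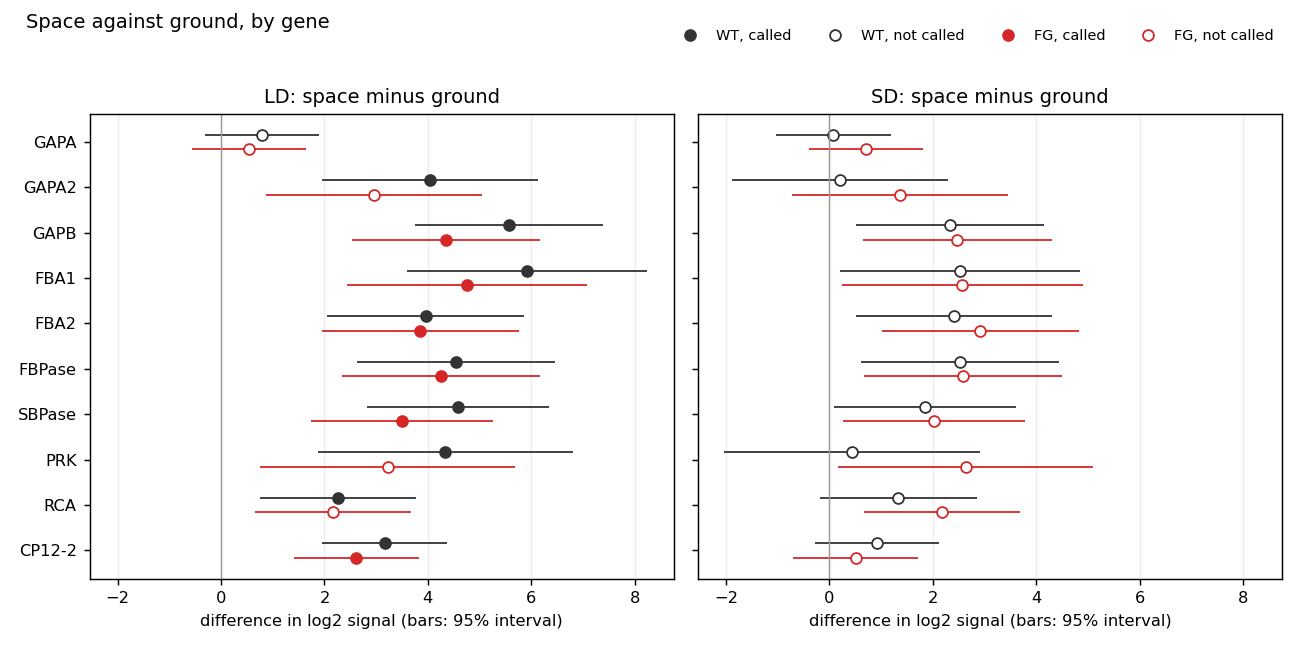
Difference in log2 signal between space and ground (x axis) for each gene (y axis), in WT and FG, under LD (left) and SD (right), with 95% intervals of the limma fit. Filled points passed adjusted p under 0.05 and 2-fold, 9 in WT and 6 in FG under LD and none under SD.

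The difference between SD and LD in the response to space was tested as an interaction, and 1 of the 10 genes passed over both genotypes (CP12-2, lower, against 2.66% of all probe sets called lower). None passed in WT or in FG alone by limma, where 0.672% and 0.840% of all probe sets were called. At an unadjusted p under 0.05 the counts were 6 in WT and 1 in FG, where 12.4% and 15.1% of all probe sets passed, so the count in FG was near that share. The difference between daylengths was negative for all 10 genes over both genotypes, with a median of -2.14 against -0.02 over all probe sets. GAPA2 (-2.71 ± 0.95, adjusted p = 0.134), FBA1 (-2.79 ± 1.05, adjusted p = 0.161) and GAPB (-2.55 ± 0.82, adjusted p = 0.107) had larger values than CP12-2 but wider errors. PRK, at -2.25, was also larger in size than CP12-2 and was not called. The call for CP12-2 was lost on leaving out any of 13 of the 16 arrays, and without WT-SD-gr array 1 the 2 genes called were GAPA2 and GAPB.

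Within space, SD leaves had lower signal than LD leaves for all 10 genes by value in both genotypes (GAPA in FG by as little as -0.000296), with medians of -1.41 in WT and -1.89 in FG. In WT the SD arrays were all below the LD arrays for all 10 genes, against 31.2% of all probe sets, and in FG for 9 of 10, against 30.6%. GAPA2 was 6.24-fold lower under SD in WT (-2.64 ± 0.95, adjusted p = 0.183) and 6.83-fold lower in FG (-2.77 ± 0.95, adjusted p = 0.121). PRK was 6.01-fold lower in WT (-2.59 ± 1.12, adjusted p = 0.276), and SBPase 5.28-fold lower in FG (-2.40 ± 0.80, adjusted p = 0.112). At the other end, RCA, measured near the top of the scale under LD, differed by -0.49 ± 0.68 in WT (adjusted p = 0.802) and -0.67 ± 0.68 in FG (adjusted p = 0.636). None of the 10 was called by limma, where 2.19% and 3.09% of all probe sets were called lower. Unadjusted p was under 0.05 for 3 in WT and 4 in FG, and for 16.5% and 21.5% of all probe sets. The fit shares 1 estimate of spread over all arrays, those on the ground included, and with arrays weighted by their own spread 6 genes were called lower in WT and 5 in FG, where that fit called 6.41% and 7.85% of all probe sets lower. A t-test between the groups at an unadjusted p under 0.05 was also run. It kept the 2-fold limit and the same direction in both replicates from the paper's methods, which name no t-test for the arrays. That rule called 6 in WT and 7 in FG, where it called 7.31% and 8.11% of all probe sets in either direction. After Benjamini-Hochberg it called 0 in each genotype. These comparisons use the same space arrays as the comparisons with the ground.

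On the ground, no gene passed the test between SD and LD leaves. The median difference of the 10 genes was 1.08 in WT, where all 10 values were positive, and -0.48 in FG, where 2 were, none was called, and no unadjusted p was under 0.05, while 0.0210% and 0.00% of all probe sets were called. FBA1 had the largest difference, 2.30 ± 1.05 in WT (adjusted p = 0.781). PRK had the lowest, -1.88 ± 1.12 in FG (adjusted p = 0.776). Both SD arrays were above both LD arrays for GAPB and FBA1 in WT, against 8.50% of all probe sets, and for CP12-2 in FG, against 15.0%. The medians depended on single arrays, from 0.023 without WT-SD-gr array 2 to 1.92 without WT-SD-gr array 1 in WT, and from -1.74 without FG-SD-gr array 1 to 0.52 without FG-SD-gr array 2 in FG. CP12-2 differed by 0.97 ± 0.55 in WT and 1.05 ± 0.55 in FG (adjusted p = 0.832 and 0.730).

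The ground arrays differed among themselves in these genes. WT-SD-gr array 2 was the highest of the 8 ground arrays for 8 of the 10 genes and among the top 3 for all 10. FG-SD-gr array 2 was the lowest for 6 genes and WT-LD-gr array 1 for the other 4. CP12-2 ran the other way on FG-SD-gr array 2, where it had its highest ground value, 12.10, while PRK had its lowest, 6.82. The median SD of the 10 genes between the 2 arrays of a group was 0.80 in WT-LD-gr, 1.51 in WT-SD-gr, 0.83 in FG-LD-gr and 1.78 in FG-SD-gr, where that of all probe sets was 0.27 to 0.38. In space it was 0.25 in WT-LD-sp, 0.13 in WT-SD-sp, 0.03 in FG-LD-sp and 0.38 in FG-SD-sp, against 0.14 to 0.21 over all probe sets.

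**Figure D3:**
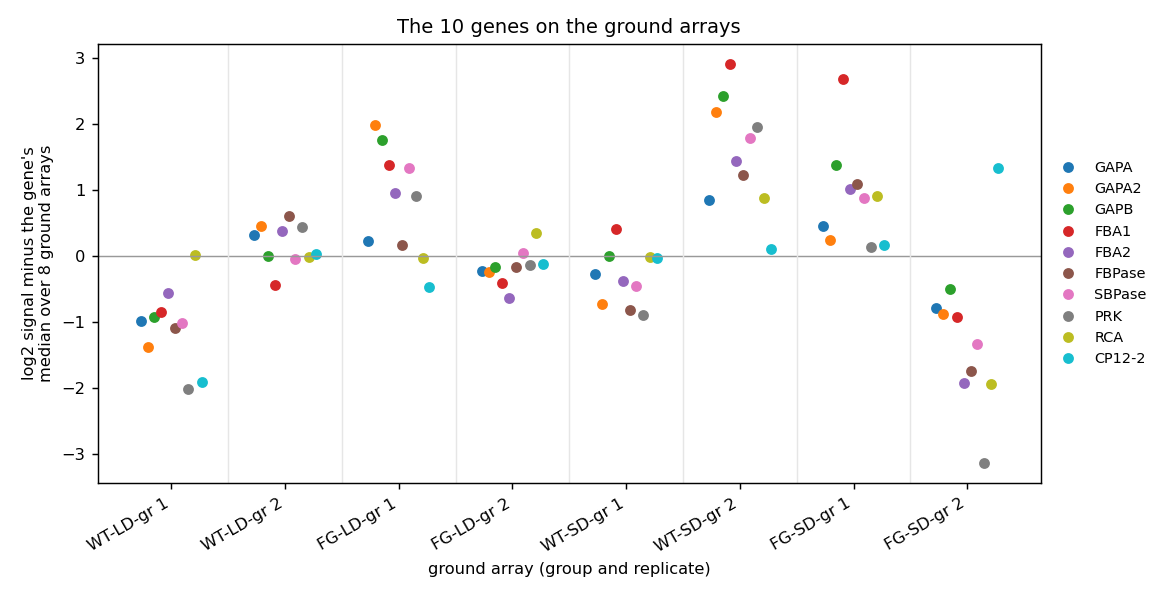
Log2 signal of each gene minus its own median over the 8 ground arrays (y axis), by ground array (x axis), with 1 coloured point per gene. Most genes lie above 0 together on WT-SD-gr 2 and below 0 together on FG-SD-gr 2 and WT-LD-gr 1, and CP12-2 lies above 0 on FG-SD-gr 2.

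FG and WT did not differ detectably in any of the 10 genes. None was called by limma, and none had an unadjusted p under 0.05, in any of the 4 combinations of daylength and environment, while 1 to 4 probe sets in all were called in each of these comparisons (0.0280%, 0.0140%, 0.00700% and 0.0140%). Under LD in space the genotypes lay close together, from -0.04 ± 1.05 (FBA1) to 0.25 ± 0.95 (GAPA2), and the 95% intervals were wide, -2.36 to 2.29 for FBA1. Under SD in space the median was -0.29, with values from -0.74 to 0.30. Under SD on the ground the median was -0.83, with PRK lowest at -2.03 ± 1.12 (adjusted p = 0.576). Under LD on the ground it was 0.88. Single arrays moved both, from -1.97 without FG-SD-gr array 1 to 0.32 without WT-SD-gr array 2 under SD, and from 0.06 without WT-LD-gr array 1 to 1.47 without WT-LD-gr array 2 under LD. The genotype interaction of the space response gave no call either, with medians of -0.81 under LD and 0.34 under SD and PRK at 2.20 ± 1.58 under SD (adjusted p = 1.00), where 0.0350% and 0.00% of all probe sets were called. These medians ran from -1.44 without WT-LD-gr array 2 to -0.0048 without WT-LD-gr array 1 under LD, and from -0.69 without FG-SD-gr array 2 to 1.60 without FG-SD-gr array 1 under SD.

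Closely related genes of the 10 were also set against each other within each array, which cancels any scaling of the array. These ratios were chosen after values were seen and are given as a description with no test. Ratios over GAPA are left out because GAPA was measured near the top of the scale. GAPB over GAPA2 was higher on all 4 space arrays than on all 4 ground arrays, by a mean log2 difference of 1.46 under LD and 1.62 under SD. FBA1 over FBA2 was higher in space by 1.43 under LD with no overlap of arrays, whereas under SD the arrays overlapped and the mean difference was -0.11. SBPase over FBPase differed by -0.35 under LD and -0.61 under SD, and PRK over CP12-2 by 0.89 and 0.83, all with overlapping arrays.

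The remaining enzymes of the cycle had lower medians than the 10 genes. Both sets were chosen with earlier results of these data known, so this order may in part follow from the choice and is a description. Of 14 further genes on 11 probe sets (4 Rubisco small subunit genes share 1), 4 probe sets were called higher in WT under LD and 6 in FG, against 10.9% and 9.46% of all probe sets. None was called under SD, where 1.25% and 0.609% of all probe sets were called higher, and none lower. Their medians were 0.99 in WT and 1.16 in FG under LD, and 0.53 and 0.37 under SD. PGK1, a phosphoglycerate kinase, rose by 2.66 ± 0.41 in WT (adjusted p = 0.00225) and 2.18 ± 0.41 in FG (adjusted p = 0.00727). The plastid-encoded rbcL, the large subunit of Rubisco, rose by 2.11 ± 0.36 in WT (adjusted p = 0.00368) and 1.16 ± 0.36 in FG (adjusted p = 0.0484). The ribose phosphate isomerase gene RPI3 rose by 1.67 ± 0.31 and 1.73 ± 0.31 (adjusted p = 0.00594 and 0.00668), and the transketolase gene TKL1 by 1.52 ± 0.28 and 1.63 ± 0.28 (adjusted p = 0.00535 and 0.00499). PGK2 (1.49 ± 0.40, adjusted p = 0.0311) and the epimerase gene RPE (1.42 ± 0.35, adjusted p = 0.0214) were called in FG and not in WT, where they measured 0.70 ± 0.40 and 1.08 ± 0.35, and their differences between genotypes were 0.79 ± 0.57 and 0.34 ± 0.49 (adjusted p = 1.00 and 1.00). The probe set shared by the Rubisco small subunit genes RBCS1A, RBCS1B, RBCS2B and RBCS3B differed by 0.81 ± 0.48 in WT and 0.50 ± 0.48 in FG (adjusted p = 0.256 and 0.521). The interaction with daylength over both genotypes passed for RPI3 (-2.15 ± 0.31, adjusted p = 0.00457) and TKL1 (-1.11 ± 0.28, adjusted p = 0.0489). These were 2 of the 11 probe sets, where 2.66% of all probe sets were called lower. The second transketolase gene, TKL2, was at -0.26 ± 0.65 in WT and -0.04 ± 0.65 in FG, with the sign opposite to the members' median and adjusted p = 0.817 and 0.987.

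A further list held genes of the thioredoxin system, of Rubisco assembly and of Rubisco repair. Of 18, 10 were called higher in WT under LD and 6 in FG, against 10.9% and 9.46% of all probe sets, and 2 and 2 under SD, against 1.25% and 0.609%. None was called lower, and the list had medians of 1.66 and 1.13 under LD and 0.64 and 0.31 under SD. TRXf1, an f-type thioredoxin that activates FBPase, rose by 3.54 ± 0.55 in WT (adjusted p = 0.00250) and 3.75 ± 0.55 in FG (adjusted p = 0.00231) under LD. TRXf2, the other f-type thioredoxin, rose by 2.70 ± 0.38 and 2.47 ± 0.38 under LD (adjusted p = 0.00143 and 0.00282), and in FG under SD by 1.98 ± 0.38 (adjusted p = 0.0386). CbbY, a phosphatase that removes a sugar phosphate inhibitor of Rubisco, was at the floor on all 8 ground arrays. Under LD in space it measured 9.92 and 9.87 in WT and 9.69 and 9.97 in FG, at least 12.7-fold and at least 12.2-fold higher than the floor. Under SD it was at least 3.05-fold and at least 2.98-fold higher. CbbY passed the filter only through the space groups, and values set to the floor have no spread. No p-value is therefore given for it, though it is counted among the calls of this list. BSD2, a chaperone of Rubisco assembly, rose in WT by 2.02 ± 0.37 under LD (adjusted p = 0.00524) and by 1.74 ± 0.37 under SD (adjusted p = 0.0428). Also called under LD in WT were NTRC, a thioredoxin reductase that carries its own thioredoxin domain, FTRB, a subunit of ferredoxin-thioredoxin reductase, the m-type thioredoxin TRXm1 and RAF2. Of the 2 other CP12 genes, CP12-3 was at -1.26 ± 0.62 in WT and -1.06 ± 0.62 in FG (adjusted p = 0.173 and 0.271), opposite in sign to CP12-2, and CP12-1 was at 0.02 ± 0.28 and -0.32 ± 0.28 (adjusted p = 0.973 and 0.486). Over both genotypes the daylength interaction was called lower for 3 of the 18, against 2.66% of all probe sets. CbbY and TRXf1 were among them, each with the smaller space difference under SD, with -2.36 ± 0.55 for TRXf1 (adjusted p = 0.0366).

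Isoforms of the same enzymes that work outside the cycle, in the cytosol or in plastid glycolysis, were listed for comparison. Of 13 genes on 12 probe sets, 2 were called higher in WT under LD and 1 in FG, against 10.9% and 9.46% of all probe sets, which is near that share. None was called under SD and none lower, and the medians were 0.54 and 0.34 under LD and -0.16 and 0.00 under SD. The aldolase gene FBA5 was at the floor on all LD ground arrays. It measured 9.80 and 11.00 in WT-LD-sp and 9.26 and 11.10 in FG-LD-sp, at least 18.0-fold and at least 15.4-fold higher. FBA5 passed the filter through the LD space groups, and values set to the floor have no spread. No p-value is therefore given for it, though it is counted among the LD calls in both genotypes. On the SD space arrays it was at the floor except on WT-SD-sp array 1, with 6.37 and 6.23 in WT. The cytosolic triose phosphate isomerase gene cTPI rose by 1.43 ± 0.37 in WT (adjusted p = 0.0228). The aldolase genes FBA4 (-0.63 ± 0.26 in WT and -0.02 ± 0.26 in FG) and FBA6 (-0.27 ± 0.25 and -0.72 ± 0.25) had signs opposite to FBA1 and FBA2 without passing the test (adjusted p = 0.0710 to 0.986). The cytosolic dehydrogenase genes GAPC1 and GAPC2 were at 0.87 ± 0.41 and 0.11 ± 0.26 in WT (adjusted p = 0.159 and 0.817), beside 5.56 ± 0.82 for GAPB.

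**Figure D4:**
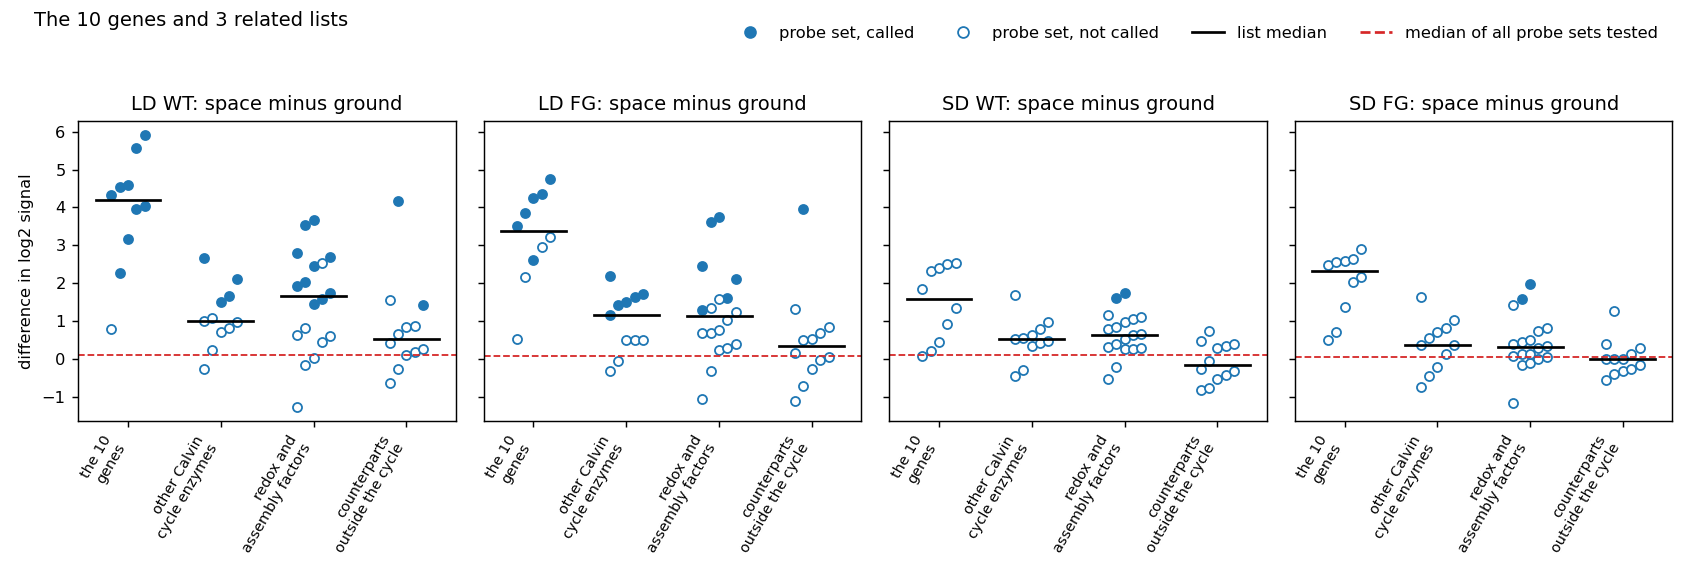
Difference in log2 signal between space and ground (y axis) of each probe set of the 10 genes and of 3 related lists (x axis), in the 4 comparisons, with list medians as black lines and the median of all probe sets tested as a dashed red line. In WT under LD the medians are 4.19 for the 10 genes, 0.99 for other enzymes, 1.66 for redox and assembly factors and 0.54 for the counterparts.

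The median pattern of the 10 genes over the 8 group means was highest in WT-LD-sp and FG-LD-sp, followed by the SD space groups, with the ground groups lowest. SBPase lay nearest to it, with a root mean square distance of 0.206 on the log2 scale, and GAPA farthest, 1.36. Among 13608 other probe sets naming 1 gene, the nearest was SHM1 (0.205), a mitochondrial serine hydroxymethyltransferase of photorespiration. SHM1 differed by 3.73 in WT and 3.39 in FG under LD, and by 1.88 and 2.47 under SD. Next came AT1G21050 (0.274), CRB (0.300, a chloroplast RNA-binding protein), ZKT (0.304), CSP41A (0.313, a chloroplast stem-loop binding protein), HCF101 (0.321, an iron-sulfur scaffold of chloroplasts), CRR23 (0.339, a subunit of the chloroplast NADH dehydrogenase-like complex) and STH (0.349, a zinc finger protein). Likeness was measured over 8 group means of 2 arrays each and is a description without a test.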

How the data were processed

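Leaf RNA of 16 samples was hybridised to Affymetrix ATH1 arrays, 1 per sample and 2 per group. The authors deposited MAS 5.0 signals on the log2 scale with detection calls, and each array's trimmed mean signal (2% removed at each end) came to 500. From these values, a floor of 75 signal units was set, 64 control probe sets were left out, and 14286 of 22810 probe sets were tested with limma 3.58.1 in R 4.3.3 (8 groups, 8 residual degrees of freedom, 19 comparisons, Benjamini-Hochberg adjustment per comparison over all probe sets tested). The number of arrays limits the precision. The 10 genes and the 3 lists were chosen with earlier results of these data known. Every one of the 10 is named in the text, as are list genes opposite in sign under LD in both genotypes and the 8 nearest patterns. List genes called in a space comparison under LD or SD are named in part, and the others are only counted. At most 6 of them per list and direction are given with values. All 10 identifiers matched RefSeq TAIR10.1 names. The test was run on simulated data with independent errors for each probe set and array. That simulation does not hold the shared movement of the 10 genes on single ground arrays, so it cannot show how the test fares there. Alternatives covered scaling, floor, filter, weights, variance model, replicate block and single arrays. Single genes of the lists that are counted but not named are not reported here. Sequences and coordinates were not used here.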

Additional observations from a re-analysis of the deposited data

Results flagged for a closer look

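CP12-2 was singled out because the test of the difference between daylengths passed. Its space difference, over WT and FG together, was lower under SD than under LD by a log2 value of -2.18 ± 0.55 (limma, adjusted p = 0.0493), and its ground values ranged from 8.87 on WT-LD-gr array 1 to 12.10 on FG-SD-gr array 2. The sign was negative in WT and in FG, but the test passed in neither genotype alone (adjusted p = 0.253 in WT and 0.233 in FG), it was lost on leaving out any of 13 of the 16 arrays, and SD plants were also heated, so daylength and heating cannot be told apart. The light phase at harvest, which the paper does not give, may also have differed between daylengths. Groups of 2 arrays are too small for a test of single arrays that stand apart.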

How the results depend on the processing

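Of 70 values of the 10 genes in 7 comparisons, each under 12 alternatives (840 in all), 770 kept their sign and call, 35 lost a call, 33 gained one and 2 changed sign. The 2 were GAPA (-0.14) and GAPA2 (-0.0058) in WT under SD with each array centred on its median. The 9 genes called in WT under LD became 3 in a fit on the arrays compared alone, where 0.896% of all probe sets were called higher. The t-test between the groups, which the paper's methods do not name, called 1 with Benjamini-Hochberg adjustment, and 23 of all 14286 probe sets. Without adjustment that t-test rule called 6, where it called 13.5% of all probe sets. The members' median became 4.88 with spike-in scaling, which put the median of all probe sets at 0.70. The 6 in FG under LD became 3 with no filter and 3 on the arrays compared alone, against 3.71% and 2.36% of all probe sets called higher. The adjusted t-test called 0 of them, and 23 of all 14286 probe sets. Without adjustment it called 8, against 12.3% of all probe sets. Spike-in scaling gave 7 in WT, 5 in FG and 9 over both genotypes under SD, against 22.9%, 14.5% and 25.7% of all probe sets called higher. No filter and the arrays compared alone gave 0 of the 4 pooled calls under SD, against 1.31% and 1.09%. With array weights, SD against LD in space gave 6 lower calls in WT and 5 in FG. That fit called 6.41% and 7.85% of all probe sets lower. The unadjusted t-test gave 6 and 7, where it called 7.31% and 8.11% of all probe sets in either direction. The pooled daylength call became 0 with median centring, no floor, log2(signal + 32), no filter and the filter on present calls. The cause of these changes was not tested.

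Leaving out 1 array at a time (1120 values), 995 kept sign and call, 101 lost a call, 16 gained one and 8 changed sign. Counts of called genes moved in WT and in FG under LD, and in WT, in FG and over both genotypes under SD. They also moved in the pooled daylength difference and in FG against WT under SD on the ground. The remaining counts did not move. Calls among all probe sets moved as well in the space comparisons and in the pooled daylength difference. Medians ranged from 3.31 to 5.01 and 2.82 to 4.11 under LD and from 0.87 to 2.42 and 0.96 to 3.51 under SD, in WT and FG. In WT under SD, the values without WT-SD-gr array 1 and without WT-SD-gr array 2 were -0.48 and 0.64 for GAPA, -1.24 and 1.66 for GAPA2, and -0.99 and 1.86 for PRK. In FG under SD, CP12-2 ran from -0.0778 without FG-SD-gr array 1 to 1.09 without FG-SD-gr array 2. The pooled daylength difference of GAPA ran from -0.60 without WT-LD-gr array 2 to 0.0517 without WT-LD-gr array 1, and was also above 0 without WT-SD-gr array 2 (0.0079) or FG-SD-gr array 1 (0.0392). That of RCA ran from -1.17 without FG-SD-gr array 2 to 0.25 without FG-SD-gr array 1.

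With the replicate block the counts were 9 in WT and 6 in FG under LD, where 11% and 9.48% of all probe sets were called higher. They were 0 and 0 under SD, against 1.21% and 0.665%. Over both genotypes they were 9 under LD and 3 under SD, against 13.7% and 3.57%, with RCA under SD at limma adjusted p = 0.0513. The daylength difference gave 1, against 2.68% called lower. Calls among all probe sets moved from 2386 to 2429 in WT under LD. The differences between same-numbered arrays correlated by -0.278 to 0.502 over 28 pairs of groups (median 0.0842, 14 over 0.1 and 8 under -0.1), so the numbers were not taken as pairs, since not every pair of groups was over 0.1.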
